A study of Mus musculus with 9 samples.

Results

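The genes of the interleukin-33 (IL-33) and interleukin-1 (IL-1) ligands and receptors were followed in mouse gut organoids, which are epithelial cultures grown from gut tissue. They were chosen by their names as the ligands Il33, Il1a and Il1b, the antagonist Il1rn, the receptors Il1rl1 and Il1r1, the shared subunit Il1rap, the decoy receptor Il1r2 and the inhibitory receptor Sigirr. In the mouse, Il1rl1, Il1r1 and Il1r2 lie on chromosome 1, Il1a, Il1b and Il1rn on chromosome 2, Sigirr on chromosome 7, Il1rap on chromosome 16 and Il33 on chromosome 19. All 9 have a row among the 23955 rows of the deposited count table. RNA-seq was performed on 9 samples. The MIN group was 3 organoid cultures of normal gut epithelium taken next to the adenomas of APCmin/+ mice, so it too carried the APC mutation. The adenoma group was 3 cultures grown from adenomatous polyps of APCmin/+ mice, and the sulindac group was 3 such adenoma cultures treated with sulindac, a nonsteroidal anti-inflammatory drug (NSAID). Noggin, EGF, bFGF, R-spondin1 and B27 were in the medium of all groups. The dose, duration and vehicle of the organoid treatment, and the number, age and sex of the mice, are not given in the sources used here, and the replicates are described as biological. The comparisons ask how the genes differ between adenoma and APC-mutated epithelium without adenoma, and how they differ once adenoma cultures have met the NSAID.

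IL-33 is a cytokine that epithelial and stromal cells hold in the nucleus and release on damage, which is why it is called an alarmin. It binds ST2, the product of Il1rl1, and IL-1alpha and IL-1beta bind the product of Il1r1. Both receptors need the accessory protein of Il1rap to signal through Myd88 and the IRAK kinases to NF-kB. The antagonist of Il1rn occupies the IL-1 receptor without signalling, Il1r2 encodes a receptor that binds IL-1 without signalling, and Sigirr encodes a membrane protein that dampens the pathway. In the gut, IL-33 is best known for acting on innate lymphoid cells, regulatory T cells and mast cells rather than on the epithelium that makes it.

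The promoter windows of the 3 genes with the clearest differences between adenoma and MIN are shown first, because Il33 and Il1r1 were higher and Il1rap was lower there. RefSeq on GRCm38.p6 gave a window of 250 bases before to 50 bases after a start for 8 of the 9 genes. Capitals mark a match to TATAAA, searched on the given strand, or to the NF-kB pattern GGGNNNTTCC, searched on both strands. The AP-1 pattern TGANTCA and the TCF/LEF pattern CTTTGA, also searched on both strands, had no match in these 5 windows. The windows are, in order, chr19:29924863-29925162, chr19:29945540-29945839, chr1:40224830-40225129, chr1:40266336-40266635 and chr16:26581455-26581754, all on the plus strand.
Il33 window 1: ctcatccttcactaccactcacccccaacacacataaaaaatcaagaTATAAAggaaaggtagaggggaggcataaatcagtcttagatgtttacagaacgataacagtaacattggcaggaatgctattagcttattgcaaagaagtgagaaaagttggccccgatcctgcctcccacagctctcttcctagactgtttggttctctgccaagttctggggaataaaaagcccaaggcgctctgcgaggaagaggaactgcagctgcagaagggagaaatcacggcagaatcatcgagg
Il33 window 2: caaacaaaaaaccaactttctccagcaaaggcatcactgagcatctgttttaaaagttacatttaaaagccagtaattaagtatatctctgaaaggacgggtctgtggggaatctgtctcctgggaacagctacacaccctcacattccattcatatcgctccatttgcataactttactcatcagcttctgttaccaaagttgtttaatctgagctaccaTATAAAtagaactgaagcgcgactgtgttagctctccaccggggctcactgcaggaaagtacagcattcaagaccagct
Il1r1 window 1: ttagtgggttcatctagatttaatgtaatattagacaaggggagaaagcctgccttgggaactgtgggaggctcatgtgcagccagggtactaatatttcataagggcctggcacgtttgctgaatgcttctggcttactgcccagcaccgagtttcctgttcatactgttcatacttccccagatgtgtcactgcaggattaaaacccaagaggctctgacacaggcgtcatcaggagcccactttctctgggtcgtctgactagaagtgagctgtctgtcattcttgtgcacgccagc
Il1r1 window 2: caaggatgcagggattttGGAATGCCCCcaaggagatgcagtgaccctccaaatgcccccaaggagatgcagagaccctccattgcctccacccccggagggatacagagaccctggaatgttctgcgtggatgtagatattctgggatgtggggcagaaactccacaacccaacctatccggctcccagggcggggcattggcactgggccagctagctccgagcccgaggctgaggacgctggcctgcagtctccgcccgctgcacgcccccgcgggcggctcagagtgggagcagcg
Il1rap window: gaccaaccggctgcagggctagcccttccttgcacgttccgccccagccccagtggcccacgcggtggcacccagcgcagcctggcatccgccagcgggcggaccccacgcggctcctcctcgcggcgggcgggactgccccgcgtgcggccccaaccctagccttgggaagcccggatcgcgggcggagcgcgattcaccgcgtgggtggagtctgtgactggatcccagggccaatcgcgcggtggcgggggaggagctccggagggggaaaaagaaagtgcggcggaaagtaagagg

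Both Il33 windows held a TATAAA match, which 8.32% of the 32851 windows in the table hold. It began at position -203 from the start in the first window and at -29 in the other. Their GC contents were 46.3% and 42.3%, against a median of 52.7% over all windows. The Il1rap window lay at the other end, with 72% GC and 33 CpG dinucleotides against a median of 7, and 6.87% of all windows had as much GC. The Il1r1 windows held 49.3% and 63.3% GC, and the second held an NF-kB match that began at position -232, a pattern found in 5.56% of windows. Among the other genes of the set, every Il1rn window also held an NF-kB match, and the Il1a and Il1b windows a TATAAA match. Windows 2 and 3 of Il1rn overlap, and their NF-kB match is the same stretch. Window 1 of Il1rn and the Il1a window also held an AP-1 match. For the motifs with no match in the windows printed above, the shares of all windows were 7.81% for AP-1 and 16% for TCF/LEF. The count table does not say which start was used, and a match is a description of the letters only.

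Total counts per sample ran from 30881206 to 48412477. Levels are given as CPM, that is, counts scaled to the library total after TMM normalization, and a gene with 3 counts lies at a floor of 0.0641 to 0.10 CPM, a limit that covers counting error only. The 8 epithelial marker genes summed to 5738 to 8258 CPM for MIN, 3340 to 4352 for adenoma and 4584 to 5501 for sulindac, so this sum was lower in adenoma than in MIN in every sample. Of the 8, edgeR called 0 higher and 6 lower in adenoma, beside 18.5% and 20.1% of all genes tested. At an unadjusted p under 0.05, 1 was higher (Krt18), and DESeq2 called 1 higher. The stromal and leukocyte marker lists were at 0 for some genes, such as Col1a2, Col3a1, Emr1 and Il7r, and not for others, and are given with their values at the end. These are bulk samples, in which fewer cells of a type and less RNA per cell cannot be told apart.

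**Figure D1:**
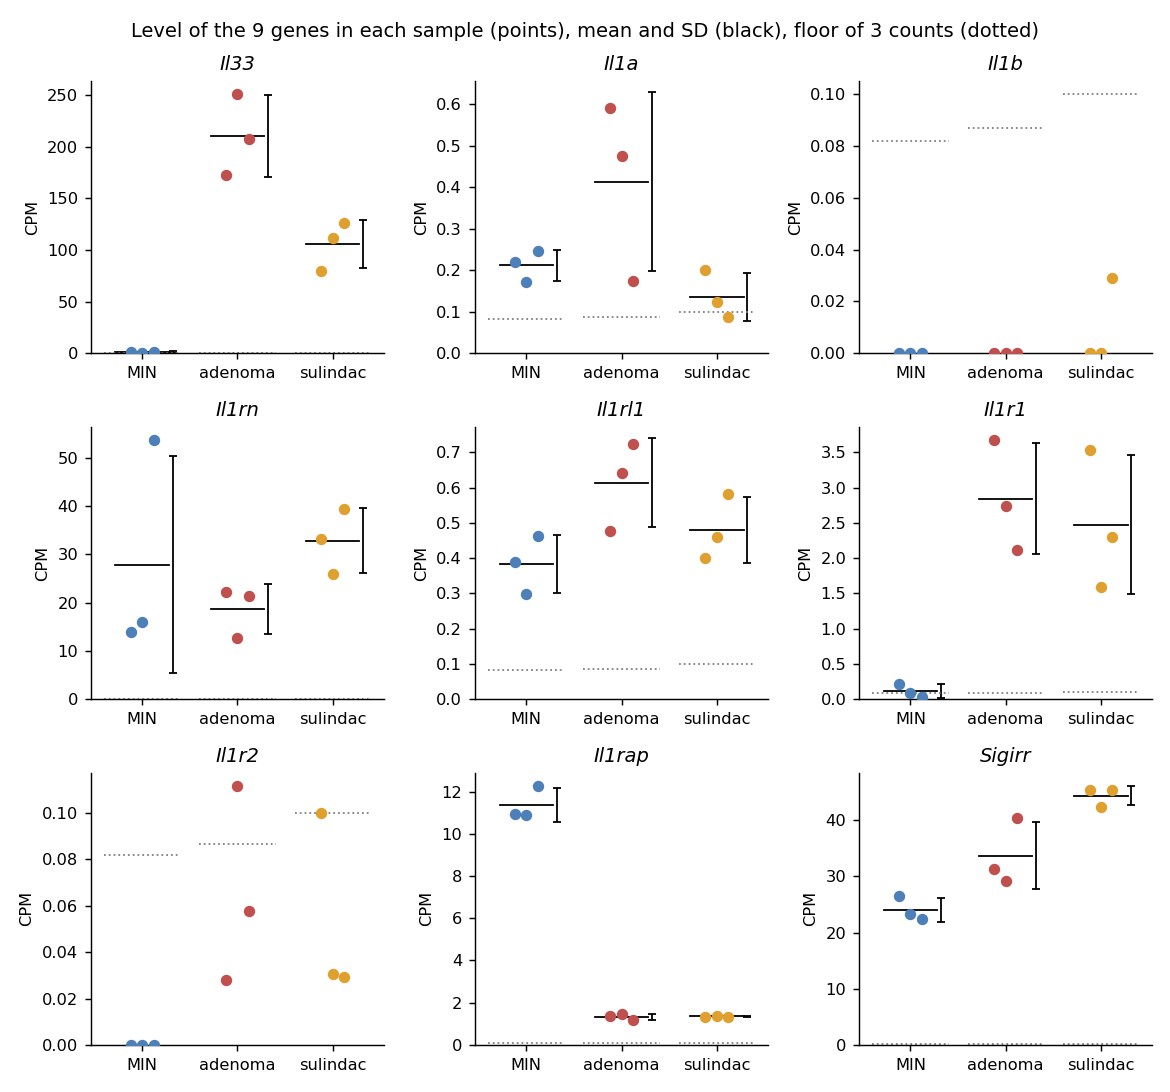
Level of each gene in CPM (y axis, linear and starting at 0, a scale of its own for each gene) in the 3 samples of the MIN, adenoma and sulindac groups. Points are samples, black lines are the mean and SD of 3 samples (left out for Il1b and Il1r2, which lie at the floor) and dotted lines are the highest floor of 3 counts in the group. Il33 lies at 0.769 to 1.75 CPM in MIN and at 172 to 251 CPM in adenoma, and Il1rap falls from 10.9 to 12.3 CPM to 1.19 to 1.45 CPM.

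Il33 had the largest difference of the 6 tested genes between adenoma and MIN. In CPM, its levels were 1.75, 0.769 and 1.31 in the MIN samples, 172, 251 and 208 in the adenoma samples, and 79.9, 112 and 126 in the sulindac samples. The 3 groups did not overlap, with MIN lowest, adenoma highest and every sulindac sample between them. These levels rest on 36 to 72 counts per MIN sample, 6134 to 8984 per adenoma sample and 2396 to 4324 per sulindac sample. Adenoma was 166-fold above MIN, a log2 fold change of 7.38 ± 0.30 (SE, n = 3 per group, edgeR quasi-likelihood test, adjusted p = 3.03e-07). In this comparison 18.5% of the 13744 genes tested were higher in adenoma and 20.1% were lower at the false discovery rate (FDR) of 1% used throughout.

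After sulindac, Il33 was 1.98-fold lower than in untreated adenoma, a log2 fold change of -0.98 ± 0.189 (SE, edgeR, adjusted p = 0.00537), where 8.32% of the 12962 genes tested were higher and 9.1% were lower. It was still 83.5-fold above MIN, with a log2 fold change of 6.38 ± 0.294 (SE, edgeR, adjusted p = 7.43e-07), where 23% of 13551 genes were higher and 26.8% were lower. The fall after sulindac sat close to the threshold. Leaving out adenoma replicate 2 gave -0.83 (edgeR, adjusted p = 0.0154) and leaving out adenoma replicate 3 gave -1.0 (edgeR, adjusted p = 0.0162). Leaving out sulindac replicate 1, 2 or 3 gave -0.82, -1.01 and -1.13 (edgeR, adjusted p = 0.017, 0.0216 and 0.0113), so of the 6 samples left out in turn, only adenoma replicate 1 could go without loss of the call. The adenoma samples serve in both the first and the second comparison, so the rise and the fall are not independent of each other.

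The IL-1 ligands were scarce in every group. Il1a, which encodes IL-1alpha, had 9, 8 and 9 counts in MIN, 21, 17 and 6 in adenoma and 6, 4 and 3 in sulindac. The adenoma samples overlapped both other groups because of adenoma replicate 3. The gene did not pass the filter on low counts in any comparison. With no filter its log2 fold change was 0.97 between adenoma and MIN (edgeR, adjusted p = 0.166) and -1.56 between sulindac and adenoma (edgeR, adjusted p = 0.074). Over pooled counts adenoma was 3.1-fold above sulindac, with an exact 95% counting interval of 1.64 to 6.27 that leaves out the spread between samples. An exon of Gm14023 overlaps Il1a in GENCODE M21. In either orientation, 9.14% of the 50-base stretches of Il1a are shared with it, and whether counting used the strand is not stated. Il1b, which encodes IL-1beta, had 1 count in all, in sulindac replicate 3.

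The antagonist Il1rn was well expressed but varied within MIN. MIN samples held 13.9, 16.0 and 53.7 CPM, adenoma samples 22.1, 12.6 and 21.3, and sulindac samples 33.1, 25.9 and 39.4. MIN replicate 3 was the highest of all 9 samples, and every sulindac sample was above every adenoma sample. Between adenoma and MIN the log2 fold change was -0.57 (edgeR, adjusted p = 0.357), and without MIN replicate 3 it was 0.32 (edgeR, adjusted p = 0.311). Between sulindac and adenoma it was 0.82 (edgeR, adjusted p = 0.025), short of the 1% threshold, while the Wald test of DESeq2 gave an adjusted p of 0.00213. Other settings were weaker, with 0.66 for library size alone (edgeR, adjusted p = 0.0526) and 0.81 in a fit of all 9 samples (edgeR, adjusted p = 0.19). Leaving out each sample in turn gave no call (edgeR, adjusted p of 0.0223 to 0.0956). Against MIN, the sulindac samples had a log2 fold change of 0.24 (edgeR, adjusted p = 0.677) with all samples and 1.13 (edgeR, adjusted p = 0.000448) without MIN replicate 3.

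The receptor of IL-33, Il1rl1, was low throughout. It had 16, 14 and 17 counts in MIN, 17, 23 and 25 in adenoma and 12, 15 and 20 in sulindac, which is 0.299 to 0.463, 0.478 to 0.723 and 0.40 to 0.582 CPM. The adenoma samples lay just above the MIN samples and overlapped the sulindac samples. No comparison passed, with log2 fold changes of 0.69 for adenoma against MIN (edgeR, adjusted p = 0.122), -0.34 for sulindac against adenoma (edgeR, adjusted p = 0.462) and 0.33 for sulindac against MIN (edgeR, adjusted p = 0.426). A change in Il33 of the size above was thus not accompanied by a detected change in the Il1rl1 transcript at this depth. The accessory subunit of this receptor, Il1rap, did differ and is described below.

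The IL-1 receptor gene Il1r1 was close to the floor in MIN and measurable in adenoma. Its counts were 9, 4 and 1 in MIN, 131, 98 and 73 in adenoma and 106, 52 and 79 in sulindac. As levels, these are 0.0272 to 0.219 CPM for MIN, 2.11 to 3.68 for adenoma and 1.59 to 3.53 for sulindac, so MIN stood apart and the other groups overlapped. Adenoma was 24.8-fold above MIN, a log2 fold change of 4.63 ± 0.526 (SE, edgeR, adjusted p = 0.000116). Sulindac was above MIN by 4.42 ± 0.568 on the log2 scale (SE, edgeR, adjusted p = 0.000179), and its difference from adenoma was -0.20 (edgeR, adjusted p = 0.693). The size rests on few MIN counts. Without MIN replicate 1, which holds most of them, the log2 fold changes against MIN were 5.50 for adenoma and 5.30 for sulindac (edgeR, adjusted p = 0.000125 and 0.000218).

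The shared subunit Il1rap went the other way. MIN samples held 10.9, 10.9 and 12.3 CPM, against 1.38, 1.45 and 1.19 in the adenoma samples and 1.33, 1.38 and 1.34 in the sulindac samples. All 6 adenoma-derived samples lay below all MIN samples, and the adenoma and sulindac ranges overlapped. The log2 fold change was -3.08 ± 0.191 for adenoma against MIN (SE, edgeR, adjusted p = 3.19e-06) and -3.07 ± 0.163 for sulindac against MIN (SE, edgeR, adjusted p = 1.02e-06). Between sulindac and adenoma it was 0.02 ± 0.237 (SE, edgeR, adjusted p = 0.964). Gm20319 overlaps an exon of Il1rap and shares 3.98% of its 50-base stretches, counted in either orientation.

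The decoy receptor Il1r2 had no count in MIN, 1, 4 and 2 counts in adenoma and 3, 1 and 1 in sulindac. Apart from adenoma replicate 2 every sample was at or under the floor, and no fold is given. Sigirr, the inhibitory receptor, was present at 26.5, 23.2 and 22.5 CPM in the MIN samples, 31.3, 29.2 and 40.4 in the adenoma samples and 45.4, 42.4 and 45.4 in the sulindac samples. The groups were ordered MIN, adenoma and sulindac without overlap. Sulindac was 1.84-fold above MIN, a log2 fold change of 0.88 ± 0.0992 (SE, edgeR, adjusted p = 8.26e-05). The intermediate steps did not pass at 1%, with 0.49 for adenoma against MIN (edgeR, adjusted p = 0.0232) and 0.41 for sulindac against adenoma (edgeR, adjusted p = 0.0394). The first of them passed with library size alone as the scaling (0.61, edgeR, adjusted p = 0.00666) and in a fit of all 9 samples (0.48, edgeR, adjusted p = 0.00847). It missed whenever a sample was left out (edgeR, adjusted p of 0.0177 to 0.0816). The second passed without adenoma replicate 3 (0.55, edgeR, adjusted p = 0.00313) and missed without any other sample (edgeR, adjusted p of 0.0621 to 0.124). With library size alone the second was 0.25 (edgeR, adjusted p = 0.145).

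In counts, 6 of the 9 genes passed the filter on low counts in each comparison, and Il1a, Il1b and Il1r2 did not. Between adenoma and MIN 2 of the 6 were higher (Il33 and Il1r1) and 1 was lower (Il1rap), beside the shares of 18.5% and 20.1% among all genes. For sulindac against adenoma edgeR called 0 higher and 1 lower, beside 8.32% and 9.1%. At an unadjusted p under 0.05, 2 were higher there (Il1rn and Sigirr), and DESeq2 called 1, Il1rn. Between sulindac and MIN 3 were higher (Il33, Il1r1 and Sigirr) and 1 was lower (Il1rap), beside 23% and 26.8%. The median log2 fold change of the 6 genes was 0.59, -0.09 and 0.61 in these comparisons, and that of all genes tested was -0.01, -0.01 and -0.03. With 6 genes the counts describe these genes and set none of them apart from the rest.

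**Figure D2:**
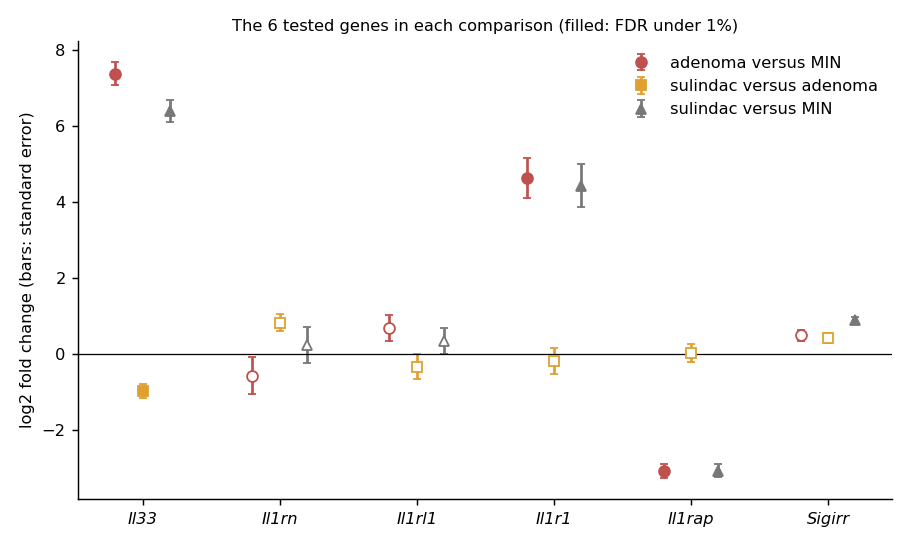
Log2 fold change (y axis) of the 6 tested genes in the 3 comparisons, with bars for the standard error and filled symbols for an FDR under 1%. Il33 and Il1r1 sit at 7.38 and 4.63 for adenoma against MIN, Il1rap sits at -3.08, and after sulindac only Il33 has a filled symbol against adenoma, at -0.98.

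Levels can be set against each other once they are divided by the length of the exons, which was taken from GENCODE M21 as an approximation. In CPM per kilobase, the order in adenoma was Il33 at 72.9, Sigirr at 11.1, Il1rn at 3.37, Il1r1 at 0.447, Il1a at 0.209, Il1rap at 0.118 and Il1rl1 at 0.0891. The samples of Il1a, Il1rap and Il1rl1 overlapped on this scale, and the other neighbours did not. In MIN the order was Sigirr at 7.91, Il1rn at 5.03, Il1rap at 1, Il33 at 0.442, Il1a at 0.107, Il1rl1 at 0.0557 and Il1r1 at 0.0174, and only Sigirr and Il1rn overlapped. In sulindac Il33 led at 36.7, before Sigirr at 14.6, Il1rn at 5.92, Il1r1 at 0.389, Il1rap at 0.119, Il1rl1 at 0.0697 and Il1a at 0.0691, where Il1rl1 and Il1a overlapped. Il33 thus moved from the fourth to the first place per length, and Il1rap from the third to the sixth in adenoma. Per length, the transcript of the ligand IL-33 exceeded those of the subunits of its own receptor in adenoma, whereas Il1rap exceeded Il33 in MIN.

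Of the other genes of the IL-1 family, 12 in a list, 4 were tested between adenoma and MIN. Of these 0 were higher and 2 lower, beside 18.5% and 20.1% of all genes tested, with a median of -1.22. None was higher at an unadjusted p under 0.05 in edgeR, and DESeq2 called 0 higher and 2 lower. Il18, an epithelial cytokine matured by caspase-1, was at 6.16 ± 0.509 CPM (SD, n = 3) in the MIN samples and at 1.28 ± 0.188 CPM (SD, n = 3) in the adenoma samples, with a log2 fold change of -2.27 (edgeR, adjusted p = 4.28e-05), and stood at 1.23 ± 0.24 CPM in sulindac. Its receptor Il18r1 fell from 77 pooled counts to 8, with a log2 fold change of -3.01 (edgeR, adjusted p = 0.00305) that missed the threshold without adenoma replicate 1 or without adenoma replicate 2 (edgeR, adjusted p up to 0.0133) and was -3.81 without adenoma replicate 3. Il18rap had 13, 20 and 4 pooled counts in MIN, adenoma and sulindac and was not tested, and Il18bp, which encodes the IL-18 binding protein, had -0.16 (edgeR, adjusted p = 0.739). The table lists IL-36gamma, another epithelial ligand of the family, as Il1f9. The MIN samples had 0.998, 1.09 and 1.39 CPM of it, the adenoma samples 1.04, 1.40 and 1.79, and the sulindac samples 7.64, 4.19 and 5.56. The sulindac samples lay above all others, with a log2 fold change of 2.05 ± 0.299 against adenoma (SE, edgeR, adjusted p = 0.00163) and 2.32 ± 0.285 against MIN (SE, edgeR, adjusted p = 0.000137). It was the only one of 3 genes tested that was called between sulindac and adenoma, where 8.32% of all genes were higher and 9.1% were lower. Il1rl2, which encodes the IL-36 receptor, had no count in any sample.

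Among 12 genes of a list of cytokine processing and inflammasome genes, 9 were tested between adenoma and MIN. Of these 1 was higher and 4 were lower, beside 18.5% and 20.1% of all genes tested, with a median of -0.10. Pycard, the adaptor of the inflammasome, had 129 to 168 CPM in MIN and 5 counts in all in adenoma, a pooled ratio of 3130 with an exact 95% counting interval of 1340 to 9630 (edgeR, adjusted p = 1.65e-08). Casp1, the protease that matures IL-1beta and IL-18, had 59.2 to 72.7 CPM in MIN and 12 counts in all in adenoma, a pooled ratio of 581 with an interval of 332 to 1130 (edgeR, adjusted p = 8.79e-08). Neither recovered after sulindac, with 6 and 11 counts in all. Casp4, an inflammatory caspase, fell by 2.43 on the log2 scale (edgeR, adjusted p = 0.00025). Capn2, a calpain subunit, rose by 1.67 (edgeR, adjusted p = 0.000848). Against adenoma, none of the 7 tested in the sulindac samples passed in edgeR, where 8.32% of all genes were higher and 9.1% were lower. At an unadjusted p under 0.05, 2 were lower (Casp8 among them), and DESeq2 called 1 lower.

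**Figure D3:**
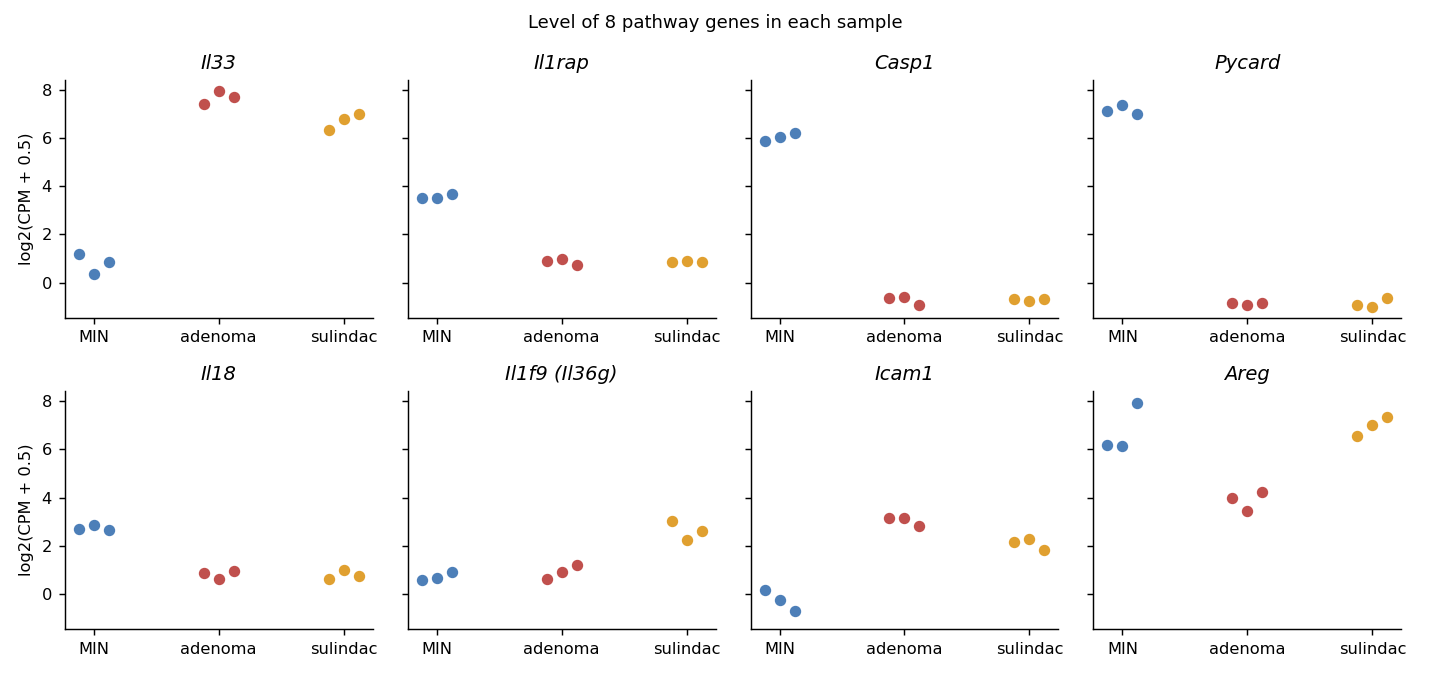
Level of 8 genes as log2(CPM + 0.5) (y axis, shared) in the 3 samples of each group. Il33 and Il1rap are shown beside Casp1 and Pycard of the processing and inflammasome list, the ligands Il18 and Il1f9 and the genes Icam1 and Areg. Casp1 and Pycard lie near the bottom of the axis in all adenoma and sulindac samples, Il1f9 is highest in sulindac, and Areg is lowest in adenoma.

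All 19 genes of receptor signalling were tested between adenoma and MIN. There 2 were higher and 4 were lower, beside 18.5% and 20.1% of all genes tested, with a median of -0.03. Rela, an NF-kB subunit, rose from 47.5 ± 0.63 to 96.9 ± 7.58 CPM (SD, n = 3 each, edgeR, adjusted p = 4.5e-05). Peli3, a ubiquitin ligase, had a log2 fold change of 1.42 that missed the threshold when any sample other than MIN replicate 2 was left out (edgeR, adjusted p up to 0.0218). Irak3, an inhibitory member of the IRAK family, had 435 pooled counts in MIN against 14 in adenoma, a ratio of 26.4 with a counting interval of 15.6 to 48.7, and Peli2 had 449 against 11, a ratio of 34.7 with an interval of 19.2 to 70.1 (edgeR, adjusted p = 9.5e-06 and 5.6e-05). The fitted log2 fold change of Peli2 was -5.06, and -6.28 without adenoma replicate 2. The adaptor Myd88 fell by 1.10 and the kinase Irak4 by 0.64 on the log2 scale (edgeR, adjusted p = 0.00128 and 0.00175), and Irak4 missed the threshold without MIN replicate 2 (edgeR, adjusted p = 0.0126). Of these genes, 17 were tested between sulindac and adenoma, with a median of 0.22. There 4 were higher and 0 were lower, beside 8.32% and 9.1% of all genes tested. At an unadjusted p under 0.05, 1 was lower in edgeR (Nfkb1), and DESeq2 called 1 lower. The 4 were Ikbkg and Chuk, subunits of the IKK complex, with 0.92 and 0.74 on the log2 scale (edgeR, adjusted p = 0.00104 and 0.00127), the adaptor Tollip with 0.60 (edgeR, adjusted p = 0.00243) and Tab2 with 0.54 (edgeR, adjusted p = 0.00421). Leaving out adenoma replicate 2 or sulindac replicate 3 ended the call of Tollip (edgeR, adjusted p up to 0.0155), and Tab2 lost it when adenoma replicate 2 or any sulindac sample was left out (edgeR, adjusted p up to 0.0233). With library size alone as the scaling, neither of these 2 genes passed. Between sulindac and MIN 6 were higher and 4 were lower, beside 23% and 26.8% of all genes tested.

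Of 17 genes known to respond to IL-1, 10 were tested between adenoma and MIN, with a median of -0.94. Among them 2 were higher and 5 lower, beside 18.5% and 20.1% of all genes tested. Icam1, a cell adhesion molecule, was at 0.633, 0.342 and 0.109 CPM in the MIN samples, 8.43, 8.36 and 6.54 in the adenoma samples and 3.93, 4.40 and 3.03 in the sulindac samples. Like Il33 it was lowest in MIN, highest in adenoma and between them in sulindac in every sample. Its log2 fold change was 4.40 ± 0.452 for adenoma against MIN (SE, edgeR, adjusted p = 6.16e-05), and 5.02 without MIN replicate 1. For sulindac against adenoma it was -1.03 ± 0.20 (SE, edgeR, adjusted p = 0.00554), a call that held only without adenoma replicate 3 among the 6 samples left out in turn (edgeR, adjusted p up to 0.026), and not in a fit of all 9 samples (edgeR, adjusted p = 0.0351). Cxcl1, a neutrophil chemokine, rose by 2.17 in adenoma (edgeR, adjusted p = 0.00447) and fell by 2.17 after sulindac (edgeR, adjusted p = 0.00701) on 13, 51 and 10 pooled counts in MIN, adenoma and sulindac. The rise missed the threshold without MIN replicate 1, MIN replicate 2, adenoma replicate 1 or adenoma replicate 3 (edgeR, adjusted p up to 0.0206), and the fall when any of the 6 samples was left out (edgeR, adjusted p of 0.0173 to 0.0298). In DESeq2 neither passed, with adjusted p of 0.0108 and 0.0173.

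The chemokine gene Ccl20 fell by 2.66, Birc3, an inhibitor of apoptosis, by 1.33 and Zc3h12a, a ribonuclease, by 1.15 on the log2 scale between MIN and adenoma (edgeR, adjusted p = 0.000391, 0.000137 and 0.000432). Ptgs2, which encodes cyclooxygenase-2, a target of NSAIDs, had 71 pooled counts in MIN and none in adenoma or sulindac, at least 6.88-fold lower in adenoma when each adenoma library is set at the floor of 3 counts (edgeR, adjusted p = 0.000572). After sulindac, 7 genes of this list were tested against adenoma, with a median of 0.27. Among them 0 were higher and 2 were lower, beside 8.32% and 9.1% of all genes tested. At an unadjusted p under 0.05, 1 was higher in edgeR, Nfkbiz, and DESeq2 called 0 higher. Between sulindac and MIN 1 of 8 was higher and 4 were lower, beside 23% and 26.8% of all genes tested.

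A list of 11 alarmin and type 2 genes, the arm of immunity that IL-33 is known to drive, had 5 tested in each comparison. Between adenoma and MIN 0 were higher and 2 were lower, beside 18.5% and 20.1% of all genes tested, with a median of -0.87. At an unadjusted p under 0.05 none was higher in edgeR, and DESeq2 called 0 higher and 3 lower. Areg, which encodes the epidermal growth factor family ligand amphiregulin, was at 71.9, 70.5 and 246 CPM in the MIN samples, 15.1, 10.5 and 18.4 in the adenoma samples and 93.2, 128 and 164 in the sulindac samples. Adenoma was below both other groups in every sample, and MIN replicate 3 was again the highest sample. The log2 fold change was -3.14 for adenoma against MIN (edgeR, adjusted p = 0.000876), which was -2.28 without MIN replicate 3 and missed the threshold without adenoma replicate 1 (edgeR, adjusted p = 0.0109) and with no filter on low counts (edgeR, adjusted p = 0.014). For sulindac against adenoma it was 3.14 ± 0.254 (SE, edgeR, adjusted p = 0.000149). Il13ra1, a receptor subunit for IL-13, fell by 1.19 in adenoma (edgeR, adjusted p = 4.11e-05). Il4ra, its partner, rose by 0.96 between adenoma and sulindac (edgeR, adjusted p = 0.00146), the other of 2 genes higher there. The list median there was 0.23, and 0 genes were lower, also at an unadjusted p under 0.05 and in DESeq2. Of all genes tested, 8.32% were higher and 9.1% were lower there. The cytokine genes Il4, Il5, Il13, Il25 and Tslp had at most 2 counts in any sample.

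**Figure D4:**
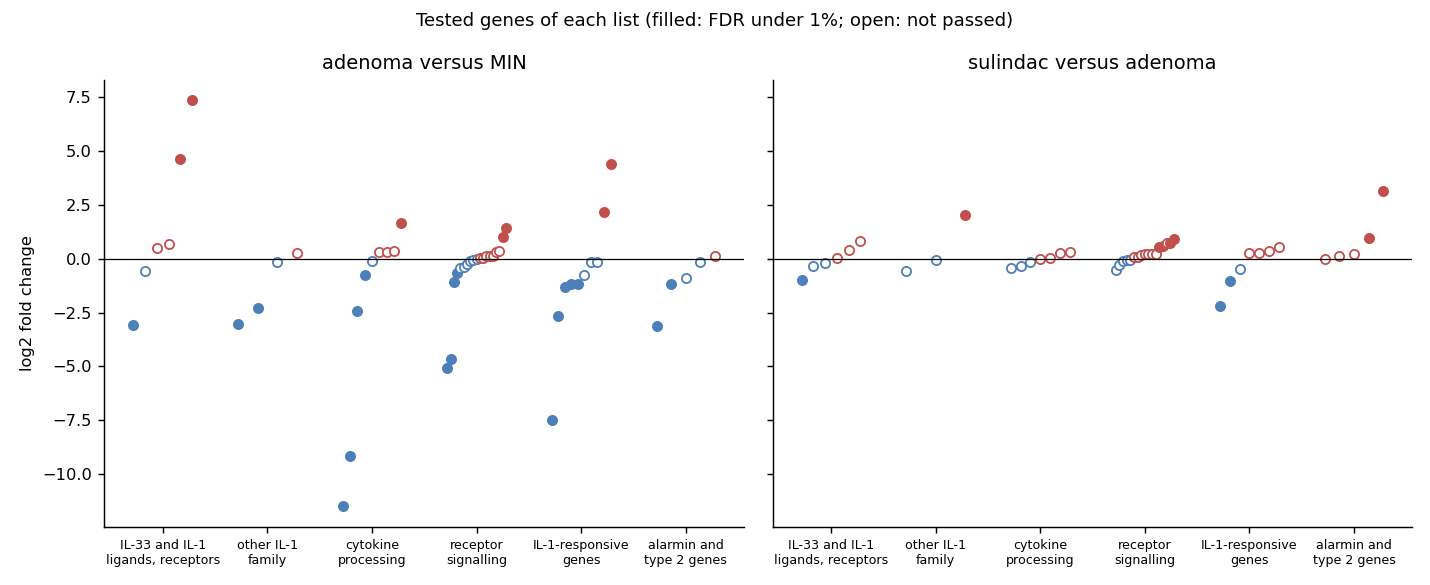
Log2 fold change (y axis) of every tested gene of the 6 lists for adenoma against MIN (left) and sulindac against adenoma (right), ordered by value within each list, red above and blue below 0. Filled points passed an FDR of 1%, and the points below -7, Pycard, Casp1 and Ptgs2, rest on few or no adenoma counts. Ptgs2 had no adenoma count, so that its size depends on the prior count. On the left the lists hold filled points in both directions or below 0, and on the right few points are filled.

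The 5 genes whose log2(CPM + 0.5) followed that of Il33 most closely over the 9 samples were 1700047E10Rik, Plxnd1, Zfp651, Cryz and Serpinb11, with Pearson's r of 0.9992, 0.998, 0.9971, 0.9971 and 0.9969 among 13882 genes. The 9 points form 3 groups, so these values mainly restate the order of the group levels. Serpinb11, a serpin, was at 0.0415 ± 0.0177 CPM for MIN, 76.5 ± 13.1 for adenoma and 40.0 ± 7.34 for sulindac (SD, n = 3 each), and Cryz, a quinone reductase, had 3.07 ± 0.363, 47.0 ± 2.27 and 31.1 ± 2.05 CPM. Among the other tested genes of the IL-33 and IL-1 set, r with Il33 was 0.953 for Il1r1, 0.763 for Sigirr, 0.718 for Il1rl1, -0.02 for Il1rn and -0.985 for Il1rap.

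Stromal cells can also express Il33, and the 11 stromal markers did not move as a block. Summed, they gave 18.6 to 24.3 CPM for MIN, 107.7 to 262.4 for adenoma and 4.13 to 9.78 for sulindac. Almost all of the adenoma sum was Vim, the mesenchymal filament gene, with 105 to 260 CPM in adenoma, 2.92 to 4.77 in MIN and 2.63 to 8.50 in sulindac. Without Vim, a sum computed after the values were seen, the order was 13.8 to 21.4 CPM for MIN, 2.21 to 2.57 for adenoma and 1.28 to 1.5 for sulindac.

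Pdgfra, a receptor of mesenchymal cells, had the order of Il33 with no overlap, at 0.122 to 0.171 CPM in the MIN samples, 0.723 to 1.09 in the adenoma samples and 0.367 to 0.667 in the sulindac samples. Its difference between sulindac and adenoma did not pass, with a log2 fold change of -0.68 (edgeR, adjusted p = 0.165). Pdgfra was higher than in MIN by 2.49 in adenoma (edgeR, adjusted p = 0.000492) and by 1.79 in sulindac (edgeR, adjusted p = 0.00478) on the log2 scale. The second of these missed the threshold in 4 of the 6 fits that left out a sample (edgeR, adjusted p up to 0.023) and in DESeq2 (adjusted p = 0.015). Col1a1, a fibrillar collagen, was at 0.214 to 0.599, 0.894 to 1.56 and 0.367 to 0.495 CPM in the same groups, with a log2 fold change of 1.68 for adenoma against MIN (edgeR, adjusted p = 0.0101) and -1.48 for sulindac against adenoma (edgeR, adjusted p = 0.00975), a call lost when any of the 6 samples was left out. Pdgfrb and Lyve1 went the other way, with 3.46 to 3.76 and 9.54 to 16.6 CPM in MIN and at most 0.0281 and 0.433 CPM in the other samples. Pecam1 was also lower in adenoma than in MIN, by 2.18 on the log2 scale (edgeR, adjusted p = 0.00312). That call was lost in 4 of the 6 fits that left out a sample (edgeR, adjusted p up to 0.0175) and in DESeq2 (adjusted p = 0.0156). The collagen genes Col1a2 and Col3a1 had no count in any sample.

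The sum of 15 leukocyte markers ran from 34.5 to 41.6 CPM for MIN, 9.64 to 17.5 for adenoma and 4.01 to 5.64 for sulindac. Most of the MIN sum was Kit, a receptor of mast cells and other cell types, with 27.4 to 36.4 CPM in MIN and at most 1.03 CPM elsewhere. Without Kit, again chosen after the values were seen, adenoma was highest, with 5.19 to 7.11 CPM for MIN, 8.61 to 17.2 for adenoma and 3.82 to 5.53 for sulindac. Cd68, a gene of macrophages, made up most of that adenoma sum, with 1.13 to 2.26, 7.94 to 16.2 and 2.84 to 3.90 CPM in these groups, and so was highest in adenoma like Il33. Itgam, a myeloid integrin, was at 3.31 to 4.03 CPM in MIN and at most 0.365 CPM elsewhere. Lyz2 had 53 pooled counts in MIN, 1 in adenoma and 1 in sulindac, and was lower in adenoma than in MIN (edgeR, adjusted p = 0.000434). Ptprc was at 0.112 to 0.225 CPM in the adenoma samples, on 8, 4 and 4 counts against the floor of 3. It was at most 0.0214 CPM in the MIN samples, without a count in the sulindac samples, and was not tested. S100a8 (mean 0, 0.0482 and 0.31 CPM in MIN, adenoma and sulindac) and Gata3 (0.171, 0.283 and 0.554 CPM) were highest in sulindac, and neither was called. Emr1, Cpa3 and Il7r had no count in any sample. Krt20, a keratin of differentiated gut epithelium, had 165 to 186 CPM in MIN and at most 1.63 CPM in the other samples. The part of these differences in the levels of Il33, Il1r1 and Il1rap was not tested.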

How the data were processed

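Organoid RNA of 9 samples in 3 groups of 3 was measured by RNA-seq, and the sample titles gave the groups and the replicate numbers. The authors deposited 1 table of raw counts per gene symbol, with no normalization and 23955 rows. The submitters' processing notes name RSEM, Bowtie2 2.2.4 and the build mm9, without their roles, and the annotation and the strand setting are not given in the sources used here. For MIN replicate 1 the table holds 3 columns. In each of the 23955 rows the last one is the others added up, and it was used. In 27 rows the symbol had become a date, and these were kept and not named. No column of values was left unused (0).

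Counts were filtered by filterByExpr, scaled by TMM and compared by the quasi-likelihood test of edgeR 4.0.16 in R 4.3.3 (robust fit, only the groups compared, Benjamini-Hochberg over all genes tested, FDR of 1%). Standard errors were taken from the log2 fold change and the F statistic, as its absolute value over the root of F. The script was tested on simulated data. The p-values measure the spread between these cultures. Within a list, at most the 4 genes with the smallest adjusted p per direction and comparison are named, beside all genes of the IL-1 family with a count above the floor of 3 and those given for an unadjusted p. A gene of the processing list that the rule names is not reported here. The genes and lists were chosen with earlier results of these data known. The values of Casp8, Nfkb1, Nfkbiz, Krt18, Krt19, Krt20, Cd68, Kit, Itgam, Lyz2, S100a8, Gata3, Pdgfra, Pdgfrb, Lyve1, Pecam1, Col1a1 and the genes at or near 0 were named after they were seen.

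MIN and adenoma samples of the same number had weak positive correlations across genes around their group means, of 0.125, 0.114 and 0.192. Each was above 0.1, the value set for treating the numbers as pairs, but no label ties them to a mouse or a day. The main tests did not use this pairing, and the replicate number entered only as a block in an alternative. Alternatives were library size alone or RLE size factors as the scaling, a minimum of 10 counts in every sample or no filter on low counts, a fit of all 9 samples, the replicate number as a block, DESeq2 1.42.0, an FDR of 5% and leaving out each sample. Exon lengths, overlaps and shared 50-base stretches came from GENCODE M21 on GRCm38, another build than that of the counts, and promoter windows from RefSeq on GRCm38.p6.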

Additional observations from a re-analysis of the deposited data

How the results depend on the processing

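Il33, Il1r1 and Il1rap passed the threshold between adenoma and MIN, and between sulindac and MIN, in the same direction under every alternative that could test them, with log2 fold changes of 7.09 to 7.67, 4.22 to 5.50 and -3.14 to -2.95 for adenoma against MIN. Il1r1 has fewer than 10 counts in each MIN sample, so requiring at least 10 counts in every sample removed it and left 1 of the genes higher in adenoma. Between sulindac and adenoma the count of these genes higher was 1 with DESeq2, 1 with the replicate block and 2 at an FDR of 5%. All genes there numbered 603 higher and 1983 lower with library size alone against 1078 and 1179 as reported, 1778 higher with DESeq2, and 2034 higher and 2374 lower at an FDR of 5%. Leaving out each sample gave 423 to 1403 genes higher and 386 to 1488 lower, with 0 to 1 of the IL-33 and IL-1 genes higher and 0 to 1 lower. Fewer samples enter these fits, and the cause of the other shifts was not tested.

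Il1rn turned to 0.32 between adenoma and MIN without MIN replicate 3, in a leave-one-out range of -0.91 to 0.32, and to -0.083 and -0.037 between sulindac and MIN without MIN replicate 1 and 2, in a range of -0.083 to 1.13. Values near 0 that turned between sulindac and adenoma were Il1rap, -0.15 with library size alone and -0.071 without adenoma replicate 3 (range -0.071 to 0.087), Il1r1, 0.039 without adenoma replicate 1 and 0.054 without sulindac replicate 2 (range -0.54 to 0.054), and Il18, without adenoma replicate 1, adenoma replicate 3 or sulindac replicate 1 (range -0.19 to 0.065). Il18bp turned between adenoma and MIN without MIN replicate 1 or adenoma replicate 1 (range -0.42 to 0.052).

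With the replicate block, adenoma against MIN gave 2531 genes higher and 2733 lower, with 2 and 1 of the IL-33 and IL-1 genes, and no call among them changed. Same-numbered samples correlated at 0.26, 0.213 and -0.0768 between sulindac and adenoma and at -0.0312, 0.404 and 0.258 between sulindac and MIN, so there the block rests on the number alone. It gave 872 higher and 1061 lower in the first and brought Il1rn past the threshold there (0.84, edgeR, adjusted p = 0.00389). Tab2, Cxcl1 and Col1a1 lost their calls there (edgeR, adjusted p = 0.0123, 0.0115 and 0.0105). The block gave 3280 higher and 3791 lower in the second, where the markers Krt19 and Pdgfra lost their calls (edgeR, adjusted p = 0.0171 and 0.01). Depth limits Il1a, Il1b and Il1r2, which did not pass the filter on low counts and were not called without it, and Il1rl1, with 12 to 25 counts per sample.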
